A study of Mus musculus with 6 samples.

Results

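The FOXO transcription factor genes Foxo1, Foxo3 and Foxo4 and 6 genes linked to FOXO activity, stress and quiescence (Txnip, Ccng2, Bcl6, Sesn3, Pik3ip1 and Cited2) were examined in mouse LT-HSCs, the long-term haematopoietic stem cells, rare marrow cells that sustain blood formation. They were taken by gene symbol from the deposited count table, in which 9 of 9 were present among 21761 genes. The cells came from a transplant experiment on IMP1, which binds RNA, is made mainly in fetal tissues and is encoded by Igf2bp1. Donor marrow had the genotype Rosa26 I/+;Mx1-Cre tg/+ (the IMP1 group, where I is the conditional IMP1 knock-in) or Rosa26 +/+;Mx1-Cre tg/+ (the Control group), and all hosts were lethally irradiated CD45.1/2 mice. These are the genotypes of the sample labels. The design text spells them Rosa26II+ and Rosa26+I+, so the zygosity of the knock-in rests on the sample labels. Both groups thus carried the Mx1-Cre transgene, and the labels place both 8 weeks after poly(I:C), which mimics viral RNA and induces it. Each of the 3 libraries per genotype was made from 200 sorted cells described as CD45.2+ LSK CD150+ CD48- CD34-. The Mx1 promoter answers to interferon in many cell types, so Cre under this promoter is not specific to stem cells. Hosts also carried CD45.2, and a gate against CD45.1 is not given in the sources used here. The age of the animals and whether animals were pooled are not given either. The libraries are called biological replicates with no further detail, so the p-values measure the spread between these libraries.

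FOXO proteins are forkhead transcription factors that sit at the end of the insulin and PI3-kinase pathway. When AKT or SGK kinases are active they phosphorylate FOXO proteins, which then leave the nucleus, and when the pathway is quiet FOXO proteins enter the nucleus and switch on genes for cell cycle arrest, oxidant defence and autophagy. In mouse HSCs, Foxo3 in particular is known for keeping the cells quiescent and holding reactive oxygen species down. Because FOXO activity is set mainly by phosphorylation and location of the protein, mRNA levels of the factors do not report it directly.

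Library totals lay between 25749898 and 27338450 counts in the Control group and between 50220629 and 67083116 in the IMP1 group, on average 2.26 times as many, so depth differed with genotype. Levels are given as CPM, a gene's counts scaled to the size of its library, here with trimmed mean of M values (TMM) factors. Igf2bp1 had at most 1 count in a Control library and 1870 to 2084 counts in the IMP1 libraries, as the labels require. All 9 LT-HSC markers were detected, with a summed level of 2359 to 2387 CPM in Control and 2222 to 2718 CPM in IMP1 libraries. The genes of 3 markers that LT-HSCs lack (Cd48, Cd34 and Flt3) summed to 284 to 327 CPM and 155 to 269 CPM, and most of this was Cd34, a negative gate of the sort, at 263 to 317 CPM in Control and 141 to 213 CPM in IMP1 libraries. Markers of other lineages also moved with genotype or library. The 6 erythroid markers in the table summed to 35.3 to 42.8 CPM in Control and 69.6 to 305 CPM in IMP1 libraries, with Car1 at 147 CPM in IMP1 1. Hbb-b1 among them rose from 16.9 ± 2.99 to 62.6 ± 12.6 CPM (edgeR adjusted p = 0.0448). The 6 mast cell and basophil markers, of which Gzmb was at 0 in all libraries, summed to 36.0 to 45.0 CPM in Control and 2.45 to 14.7 CPM in IMP1 libraries. The 9 granulocyte and monocyte markers summed to 708 to 822 CPM and 488 to 927 CPM, which joins opposite differences. S100a9 stood at 1.24 to 4.47 CPM in Control and 4.72 to 189 CPM in IMP1 libraries, S100a8 at 5.24 to 12.0 and 11.4 to 243 CPM, Mpo at 0.360 to 25.3 and 0 to 0.0314 CPM, and Lyz2 at 436 to 516 and 263 to 308 CPM. The 5 megakaryocyte markers summed to 328 to 662 CPM and 231 to 441 CPM, and the 6 stromal and endothelial markers, with Cdh5 at 0, to 68.7 to 114 CPM and 57.1 to 76.5 CPM. The 5 B cell markers summed to 69.2 to 85.5 CPM and 78.1 to 112 CPM, with Ms4a1 and Pax5 at 0. Most of this was Cd79b, at 69.2 to 85.5 CPM in Control and 78.0 to 105 CPM in IMP1 libraries. Cd79a and Ebf1 reached 16.9 and 14.2 CPM in IMP1 2 and were near 0 in the other libraries. The 6 T and NK cell markers in the table summed to at most 7.24 CPM, with Cd3g, Gzma and Ncr1 at 0. The part of these transcripts in the results below was not tested. In bulk RNA, fewer cells of a type and less RNA per cell cannot be told apart.

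The question was whether re-expression of IMP1 came with a change in the FOXO factors or in these targets. None of the 9 genes passed the threshold, and in 3 the libraries of the groups were separate: Txnip, higher in IMP1 libraries, and Ccng2 and Cited2, lower. All 9 passed the filter on low counts, and by edgeR's quasi-likelihood test at a Benjamini-Hochberg adjusted p under 0.05 over all genes 0 of 9 were called, where 0.211% of the 12807 genes tested were called (0.0703% with IMP1 higher, 0.141% with IMP1 lower). Before adjustment, p was under 0.05 for these 3 of the 9, 1 higher and 2 lower, against 14.3% of all genes (6.67% higher and 7.63% lower). Groups that did not overlap were found for 3 of the 9 and for 21.9% of all genes, 1 with IMP1 higher (10.7% of all genes) and 2 with IMP1 lower (11.1% of all genes). Limma-voom called 0 of 9 (0.0859% of all genes) and DESeq2 called 2 of 9, Txnip and Cited2 (6.7% of all genes). The median log2 fold change of the 9 genes was 0.022, beside 0.029 over all genes tested, with 5 positive and 4 negative (52.2% of all genes were positive). That median was not stable. It was −0.36 by limma-voom, −0.16 after removal of a trend with transcript length and GC content, −0.54 without IMP1 2, −0.39 without Control 3 and 0.18 without IMP1 3, while the median of all genes stayed between 0.019 and 0.042 in these fits. With so few genes, these counts are not read as a property of the set.

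**Figure D1:**
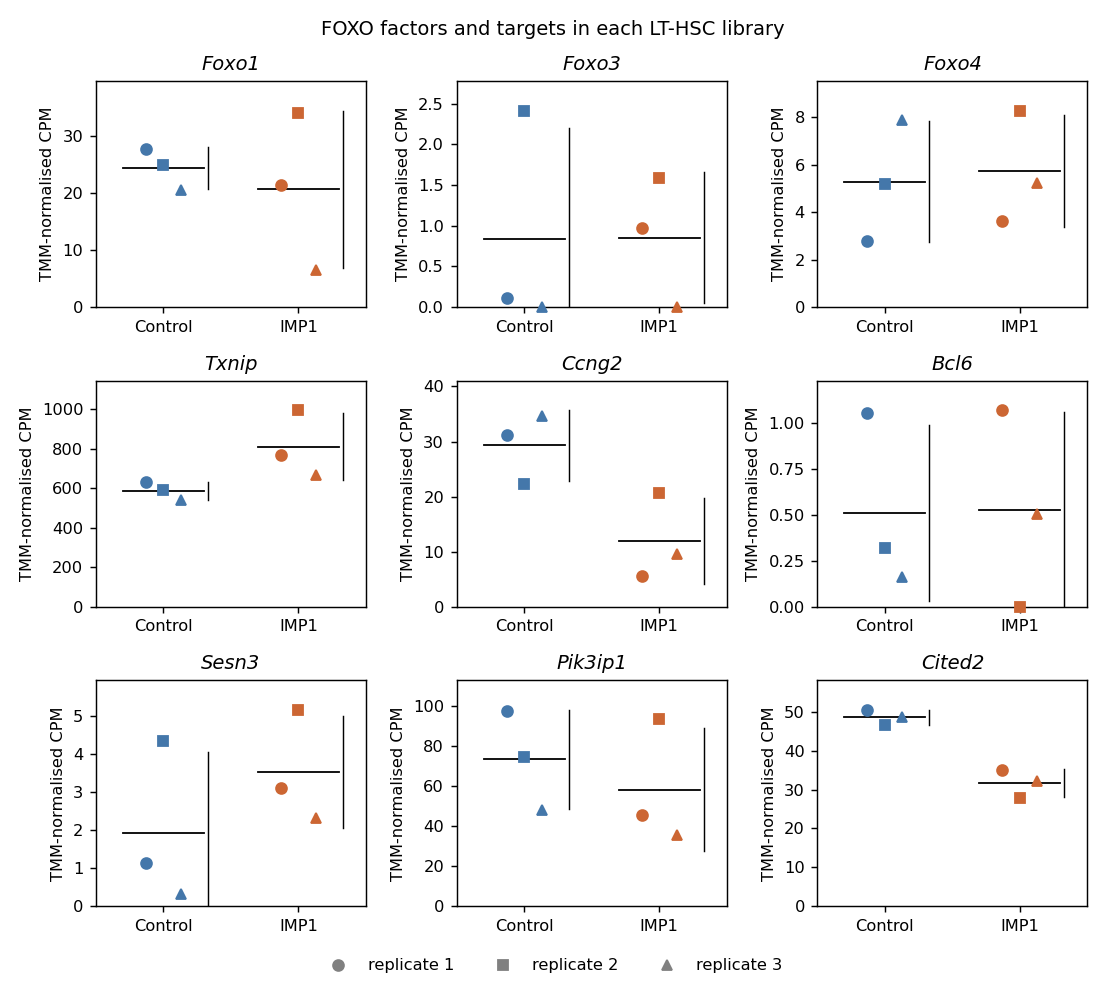
TMM-normalised CPM of each gene in the 3 Control and 3 IMP1 libraries. Symbols give the replicate number, horizontal lines the group mean and vertical lines 1 SD either side of it, stopped at 0. Groups are separate for Txnip, Ccng2 and Cited2, and IMP1 2 (orange square) is the highest IMP1 library in 7 of the 9 panels.

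Among the factors, Foxo1 carried most counts. It stood at 27.7, 24.9 and 20.5 CPM in the Control libraries and at 21.4, 34.1 and 6.51 CPM in the IMP1 libraries. The IMP1 libraries spanned the Control range on both sides, so the groups overlapped. Group means were 24.4 ± 3.63 and 20.7 ± 13.8 CPM (SD, n = 3), a log2 fold change of −0.24 (SE 0.53) with an edgeR adjusted p of 0.887. The sign rested on IMP1 3, since the log2 fold change was 0.19 without that library and −0.81 without IMP1 2. In IMP1 2, where Foxo1 was highest, the early B-lineage transcripts Cd79a and Ebf1 were at 16.9 and 14.2 CPM, against at most 0.0376 and 0.0942 CPM in the other 5 libraries, while Ms4a1 and Pax5 had 0 counts there. Foxo1 is known for its role in early B cells, and the part of these transcripts in its level was not tested. Gm20402, annotated as antisense to Foxo1, shares 590 bases with it, and strand was not given for the counting, so reads of both cannot be told apart.

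Foxo3, the factor best known from HSCs, received few counts. The gene model used for counting is not given in the sources used here, so how much of the Foxo3 transcript it covers is not known, and its level, share and rank below are those of the counted reads. Its counts were 3, 61 and 0 in Control 1 to 3 and 62, 110 and 0 in IMP1 1 to 3. These correspond to 0.113, 2.41 and 0 CPM and to 0.973, 1.59 and 0 CPM. A count of 0 allows a level of up to 0.120 CPM in Control 3 and 0.0578 CPM in IMP1 3, where the limit is 3 counts and covers counting error only. Detection was thus uneven in both groups, with 1 library at 0 in each. The group means of 0.842 ± 1.36 and 0.854 ± 0.800 CPM gave a log2 fold change of 0.022 with an SE of 1.97 (edgeR adjusted p = 0.998), so a change of several fold in either direction could not be detected with these libraries. The fitted value was 3.85 without Control 2 and 0.60 without IMP1 3. It was negative without Control 1 (−0.50), Control 3 (−0.56), IMP1 1 (−0.090) or IMP1 2 (−0.80). No other annotated transcript matched Foxo3 at 95% identity or more over at least 100 bases.

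Foxo4, the X-linked member of the family, stood at 2.78, 5.18 and 7.89 CPM in Control and at 3.64, 8.28 and 5.24 CPM in IMP1 libraries. The groups covered nearly the same range. Means were 5.28 ± 2.55 and 5.72 ± 2.36 CPM (SD, n = 3; log2 fold change 0.12, SE 0.63, edgeR adjusted p = 0.955). The sign turned when Control 1 (−0.19) or IMP1 2 (−0.25) was left out, and the value was 0.52 without Control 3, 0.36 without IMP1 1 and 0.18 without IMP1 3. Foxo6, the remaining family member, had 0 counts in all 6 libraries.

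Per length of the longest annotated transcript, the scale on which different genes can be compared, Foxo1 and Foxo4 were close and the counted level of Foxo3 was far below. Foxo1 stood at 2.81 ± 0.419 CPM per kilobase in Control and 2.38 ± 1.59 in IMP1 libraries, and Foxo4 at 1.67 ± 0.808 and 1.81 ± 0.746, with overlapping libraries in both groups. Foxo3 was at 0.123 ± 0.199 and 0.125 ± 0.117 CPM per kilobase. Of the summed per-length level of the 3 factors, Foxo3 made up 0% to 7.24% of a library. The share of Foxo1 lay between 48.7% and 78.1% in Control and between 31.2% and 65.6% in IMP1 libraries, and Foxo4 made up nearly all of the rest. The sum itself ranged from 4.09 to 4.87 CPM per kilobase in Control and more widely, from 2.41 to 6.78, in IMP1 libraries. Lengths are those of the annotation, and the isoform in these cells is not known.

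**Figure D2:**
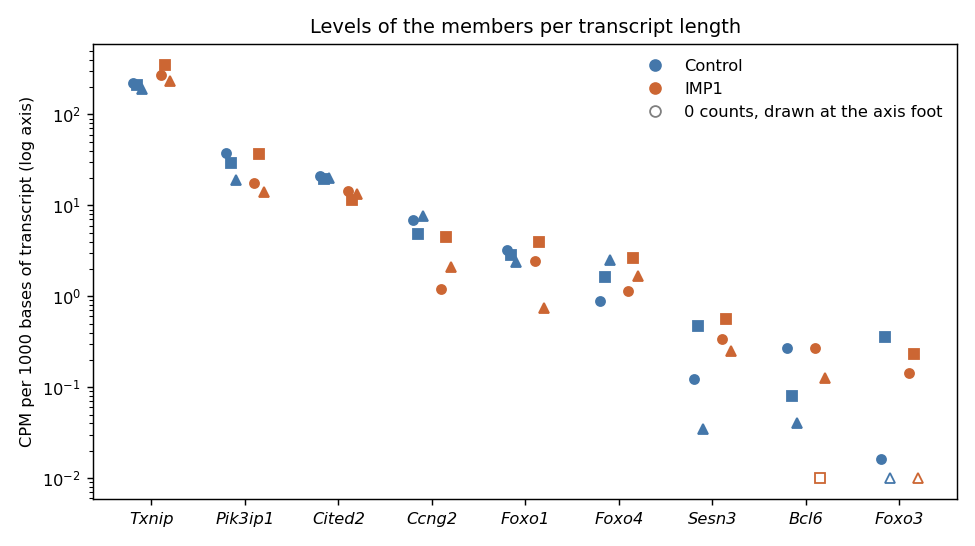
Level of each gene in CPM per kilobase of its longest annotated transcript, on a log axis, for the 3 Control (blue) and 3 IMP1 (orange) libraries, with circle, square and triangle for replicates 1, 2 and 3. Open symbols mark libraries with 0 counts. Txnip lies highest in every library, and Foxo3 reaches at most 0.353.

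On the same per-length scale the order of the 9 genes by mean level was the same in both groups, namely Txnip, Pik3ip1, Cited2, Ccng2, Foxo1, Foxo4, Sesn3, Bcl6 and Foxo3. Txnip was 7.26 times the next gene in Control and 12.6 times in IMP1 libraries. Libraries of Pik3ip1 and Cited2 overlapped in both groups, as did those of Foxo1 and Foxo4, of Sesn3 and Bcl6, and of Bcl6 and Foxo3. Ccng2 and Foxo1 were separate in Control (2.30 times apart) and overlapped in IMP1 libraries (1.10 times). Among 20329 genes with an annotated length, the mean percentile of the per-length level was 98.2 in Control and 98.9 in IMP1 libraries for Txnip and 33.1 and 32.7 for Foxo3.

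The sequences upstream of the start sites of the 3 genes whose groups did not overlap are shown with motifs of factors described as regulators of these genes. The RefSeq table of build GRCm38.p6 gave a window of 250 bases before to 50 bases after the start for 8 of the 9 genes (9 windows, 2 of them for Bcl6). Foxo4 was not matched. Capitals mark every match, on either strand, to the FOXO core GTAAACA, the E box CACGTG, the hypoxia-response core ACGTGC or the cyclic AMP response element TGACGTCA, and the 250 upstream bases are printed.
Txnip (GRCm38.p6, chr3:96557707-96557956, + strand): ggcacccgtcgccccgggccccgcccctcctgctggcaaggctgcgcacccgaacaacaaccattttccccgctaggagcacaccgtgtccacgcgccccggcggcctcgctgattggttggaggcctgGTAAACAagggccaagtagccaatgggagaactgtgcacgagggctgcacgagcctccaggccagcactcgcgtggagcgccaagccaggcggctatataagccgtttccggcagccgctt
Cited2 (GRCm38.p6, chr10:17722978-17723227, + strand): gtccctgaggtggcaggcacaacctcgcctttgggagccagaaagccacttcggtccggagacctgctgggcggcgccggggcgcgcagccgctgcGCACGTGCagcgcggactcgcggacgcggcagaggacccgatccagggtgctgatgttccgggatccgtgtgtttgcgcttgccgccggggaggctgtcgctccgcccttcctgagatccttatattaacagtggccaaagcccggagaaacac
Ccng2 (GRCm38.p6, chr5:93267323-93267572, + strand): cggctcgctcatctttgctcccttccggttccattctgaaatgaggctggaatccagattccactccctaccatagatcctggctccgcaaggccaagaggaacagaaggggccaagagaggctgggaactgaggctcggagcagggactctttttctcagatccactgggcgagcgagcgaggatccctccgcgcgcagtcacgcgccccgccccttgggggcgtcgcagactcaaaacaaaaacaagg
The FOXO core was found in 1 of the 9 windows, that of Txnip, from base −121 to base −115 before the start, and in 3.65% of all 32851 windows. The E box was found in the windows of Cited2 (from −153 to −148) and Bcl6 (from −60 to −55) and in 7.15% of all windows. The Cited2 E box is overlapped by a hypoxia-response core on each strand, a motif held by 5.91% of all windows. The cyclic AMP response element, held by 1.79% of all windows, was in none of the 9, and the windows of Foxo1, Foxo3, Ccng2, Sesn3 and Pik3ip1 held none of the 4 motifs. Only exact matches to these strings were sought, so variant forms of a site are neither marked nor counted, in the printed sequences as elsewhere. These are letter matches in a short window and do not show that a factor binds.

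Txnip, which encodes a thioredoxin-binding arrestin that restrains glucose uptake and is known from mouse HSCs for limiting oxidative stress and cell cycling, was the most abundant of the genes. It stood at 630, 589 and 541 CPM in Control and at 770, 995 and 665 CPM in IMP1 libraries. Every IMP1 library lay above every Control library, though the lowest IMP1 value was close to the highest Control value. Means were 587 ± 44.3 and 809.9 ± 169 CPM (SD, n = 3), a log2 fold change of 0.46 (SE 0.15, edgeR adjusted p = 0.222), higher in 3 of 3 IMP1 libraries. DESeq2 gave an adjusted p of 0.0472 for the same fold, and over 17 alternatives the adjusted p ranged from 0.0472 to 0.415. Without IMP1 2 the log2 fold change was 0.29. Gm15441, an antisense transcript over Txnip, shares 443 bases with it, so reads of both cannot be told apart without strand.

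Of the 4 tested arrestin paralogues of Txnip, 0 passed the test, with log2 fold changes of 1.01 (Arrdc4), 0.76 (Arrdc3), 0.15 (Arrdc1) and −0.16 (Arrdc2). Arrdc4, which like Txnip is known as a glucose-responsive gene, stood at 15.6, 19.9 and 10.97 CPM in Control and at 28.0, 43.7 and 22.1 CPM in IMP1 libraries (SE 0.37, edgeR adjusted p = 0.277). Its groups did not overlap, whereas those of the other 3 did. Of 7 tested partners and regulators of Txnip, 6 were lower in IMP1 libraries by their fitted values, with a median log2 fold change of −0.18. Over all genes 52.2% were higher and the median was 0.029, and 0 of the 7 were called in either direction. After removal of the length and GC trend 5 were lower (median −0.15), and without scaling beyond the library total the median was −0.087 beside 0.12 for all genes. Txn2, the mitochondrial thioredoxin, was at 276 ± 61.5 against 199.5 ± 32.5 CPM and Mlx, a partner of the glucose-sensing factors that drive Txnip, at 65.8 ± 7.19 against 49.7 ± 4.02 CPM. Txn1, the cytosolic thioredoxin to which the protein binds, was at 301 ± 1.80 against 266 ± 18.4 CPM (log2 fold change −0.18, edgeR adjusted p = 0.481), and its sign turned after removal of the trend (0.039). Of the glucose-sensing factors themselves, Mlxipl had 0 counts in every library and Mlxip stood at 36.6 ± 6.71 against 42.9 ± 3.21 CPM.

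Ccng2, which encodes cyclin G2, an unusual cyclin induced when cells leave the cycle, had a fitted value further from 0 than the other 8 genes in the edgeR fit, though not by limma-voom, without Control 2 or without IMP1 1. It stood at 31.1, 22.2 and 34.6 CPM in Control and at 5.49, 20.6 and 9.61 CPM in IMP1 libraries. Every IMP1 library was below every Control library, but IMP1 2 lay just under Control 2. Means were 29.3 ± 6.39 and 11.9 ± 7.80 CPM (SD, n = 3), a log2 fold change of −1.30 (SE 0.49, edgeR adjusted p = 0.291), lower in 3 of 3 IMP1 libraries. Without IMP1 2 the log2 fold change was −1.95 and without IMP1 1 it was −0.95, and the adjusted p ranged from 0.104 to 0.489 over 17 alternatives. Its paralogue Ccng1, named outside the rule for naming genes, stood at 49.3 ± 1.86 against 56.6 ± 10.6 CPM (log2 fold change 0.20, edgeR adjusted p = 0.721), with overlapping groups.

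Cited2, a co-regulator that competes with HIF factors for the coactivators CBP and p300 and is known to be needed by mouse HSCs, was the steadiest of the genes. It stood at 50.5, 46.7 and 48.6 CPM in Control and at 34.96, 27.9 and 32.1 CPM in IMP1 libraries. The gap between the groups, from 34.96 to 46.7 CPM, was wider than the spread within either. Means were 48.6 ± 1.90 and 31.7 ± 3.54 CPM (SD, n = 3), a log2 fold change of −0.62 (SE 0.21, edgeR adjusted p = 0.241), lower in 3 of 3 IMP1 libraries. DESeq2 gave an adjusted p of 0.0382, and the range over 17 alternatives was 0.0382 to 0.503. Fold changes in these libraries followed transcript length and GC content, and at the length and GC content of Cited2 that trend amounted to −0.18. After removal of that trend the log2 fold change was −0.44 (edgeR adjusted p = 0.444). The same removal made the differences of Ccng2 and Txnip larger, at −1.48 and 0.54 (edgeR adjusted p = 0.302 and 0.234). The paralogues Cited1 and Cited4 were too low to be tested, with at most 1.10 and 0.141 CPM in any library.

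**Figure D3:**
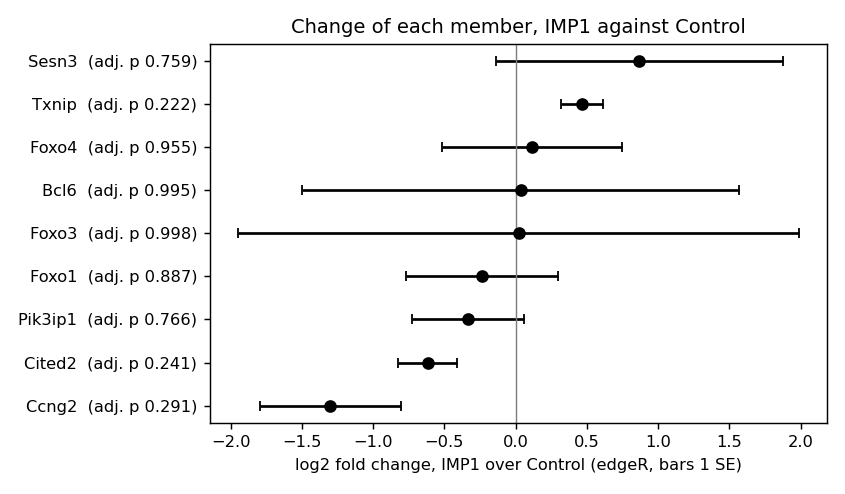
Log2 fold change of each gene, IMP1 over Control, from the edgeR quasi-likelihood fit over all 6 libraries, with bars of 1 SE and the adjusted p beside each name. Bars of Txnip, Cited2 and Ccng2 stay clear of 0, and those of Foxo3 and Bcl6 reach more than 1 log2 unit to each side.

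Pik3ip1, a transmembrane inhibitor of PI3-kinase, was the second most abundant gene per length. It stood at 97.7, 74.8 and 48.3 CPM in Control and at 45.6, 93.6 and 35.8 CPM in IMP1 libraries. IMP1 2 was as high as the Control libraries and the other IMP1 libraries were below all of them. Means were 73.6 ± 24.7 and 58.4 ± 30.9 CPM (SD, n = 3; log2 fold change −0.33, SE 0.39, edgeR adjusted p = 0.766). Leaving out a library moved the log2 fold change to −0.86 (IMP1 2), −0.57 (Control 3), −0.18 (IMP1 1), −0.080 (IMP1 3) or −0.077 (Control 1).

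Sesn3, a sestrin that damps mTORC1 signalling and oxidants, was low and uneven. It stood at 1.13, 4.35 and 0.320 CPM in Control and at 3.11, 5.17 and 2.31 CPM in IMP1 libraries. Control 2 lay within the IMP1 range and the other Control libraries were below it. The log2 fold change was 0.87 (SE 1.01, edgeR adjusted p = 0.759) and ranged from 0.36 with Control 3 left out to 2.28 with Control 2 left out. Sesn1, the sestrin of highest CPM, stood at 126 ± 15.01 against 119 ± 22.7 CPM (log2 fold change −0.083, edgeR adjusted p = 0.884), and Sesn2 was not tested, with at most 4.91 CPM in any library. Bcl6, a repressor best known from germinal centre B cells, was near the limit of detection. Its counts were 28, 8 and 4 in Control 1 to 3 and 68, 0 and 26 in IMP1 1 to 3, or at most 1.07 CPM. A count of 0 allows up to 0.0433 CPM in IMP1 2. Its log2 fold change of 0.035 had an SE of 1.54 (edgeR adjusted p = 0.995) and changed sign in 7 of 16 alternatives. These included the fits without Control 2 (−0.21), Control 3 (−0.39) and IMP1 1 (−1.03), while the value was 1.12 without Control 1 and 0.61 without IMP1 2. Of 8 tested partners of Bcl6 and Cited2, 0 were called in either direction. Among them Bcor was at 44.6 ± 4.14 against 56.7 ± 8.28 CPM and Ncor1 at 158 ± 12.0 against 133 ± 25.7 CPM, with overlapping groups for both.

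Within the IMP1 group the same library was often the highest. IMP1 2 was the highest of the 3 IMP1 libraries for 7 of the 9 genes (Foxo1, Foxo3, Foxo4, Txnip, Ccng2, Sesn3 and Pik3ip1) and the lowest for the other two, Bcl6 and Cited2. Over all genes tested, 34.8% were highest in that library. IMP1 3 was the lowest for 5 genes and the highest for 0, where 32.4% of all genes were lowest there. In the Control group, Control 1 was highest for 5 genes (31.4% of all genes) and Control 3 lowest for 6 (30.6% of all genes). The counts describe 9 chosen genes in 3 libraries a group and no test was made of them.

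Upstream of FOXO, 1 gene for PI3-kinase, AKT and SGK signalling was called higher in the edgeR fit. Of 33 genes in this list 29 were tested, with 1 called higher and 0 lower, where 0.0703% and 0.141% of all genes were. The median log2 fold change was 0.28 beside 0.029 over all genes, with 20 positive and 9 negative (52.2% of all genes were positive). An edgeR unadjusted p under 0.05 was reached by 5 higher and 0 lower, where 6.67% and 7.63% of all genes reached it. Groups were separate for 6 higher and 1 lower, where 10.7% and 11.1% of all genes were. Pik3r1, the regulatory subunit that both stabilises and restrains class I PI3-kinase, stood at 78.6, 75.7 and 68.9 CPM in Control and at 164, 211 and 176 CPM in IMP1 libraries. The groups were far apart, and the rise gave a log2 fold change of 1.30 (SE 0.15, edgeR adjusted p = 0.0287). The call was lost when any 1 of the 6 libraries was left out (adjusted p from 0.0762 to 0.162), by limma-voom (0.0638) and after removal of the length and GC trend (0.0787). It held under 7 of 17 alternatives. Its log2 fold change was positive under all 17 alternatives, at no less than 1.09. After removal of the trend the median of the list was 0.10 and 0 genes in it were called. Sgk3, a kinase related to AKT that phosphorylates FOXO proteins, stood at 60.7 ± 6.28 against 88.7 ± 6.72 CPM (log2 fold change 0.55, SE 0.17, edgeR adjusted p = 0.207, DESeq2 adjusted p = 0.0290). Kit, the gene of highest CPM in the list, stood at 415 ± 54.2 against 505 ± 90.8 CPM and was not called.

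Genes for enzymes and partners that act on FOXO proteins included none that passed the test. All 24 were tested, with 0 called in either direction, 13 positive, 11 negative and a median log2 fold change of 0.090, which was −0.011 after removal of the length and GC trend. Skp2, a ubiquitin ligase subunit that targets FOXO1 for degradation, stood at 13.7, 9.70 and 15.3 CPM in Control and at 52.6, 27.5 and 25.8 CPM in IMP1 libraries (log2 fold change 1.46, SE 0.37, edgeR adjusted p = 0.136, DESeq2 adjusted p = 0.00605). Mdm2, another ubiquitin ligase, was at 63.8 ± 17.9 against 107 ± 7.57 CPM (edgeR adjusted p = 0.186, DESeq2 adjusted p = 0.0266). The groups did not overlap for either gene. DESeq2 was the only 1 of 17 alternatives that called them, and limma-voom gave adjusted p of 0.275 and 0.180. Ywhaz, the gene of highest CPM among the adaptor proteins that hold phosphorylated FOXO in the cytoplasm, was at 2121 ± 49.4 against 2069 ± 90.9 CPM.

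**Figure D4:**
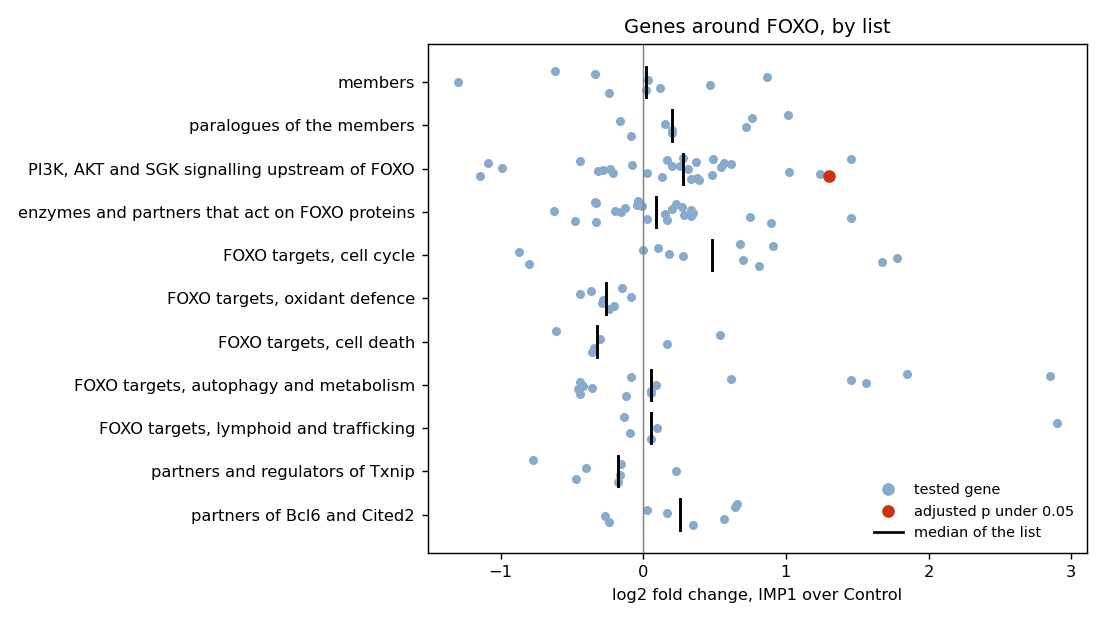
Log2 fold change, IMP1 over Control, of every tested gene in the lists around FOXO, with the median of each list as a black bar. The gene with an edgeR adjusted p under 0.05, Pik3r1 in the PI3-kinase list, is in red.

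Other described FOXO targets had fitted values of both signs. The lists join genes that FOXO induces with genes that it represses, such as Ccnd1, so counts of signs cannot show whether they shared a response. Of 59 genes in 5 lists, 46 were tested and 0 were called by edgeR, with 23 positive, 23 negative and a median log2 fold change of −0.041. An unadjusted p under 0.05 was reached by 7 higher in IMP1 libraries and 6 lower, where 6.67% and 7.63% of all genes reached it. DESeq2 called 8 of these genes, 4 in each direction, where it called 6.7% of all genes. Among 12 cell cycle targets 10 were positive (52.2% of all genes were), with a median of 0.48 beside 0.029 over all genes. Ccnd1, which encodes cyclin D1 and is known as a gene that FOXO represses, stood at 3.72, 3.84 and 4.24 CPM in Control and at 14.7, 8.08 and 17.6 CPM in IMP1 libraries (log2 fold change 1.78, SE 0.48, edgeR adjusted p = 0.154). Cdkn1c, a cell cycle inhibitor active in quiescent HSCs, stood at 5.22, 7.28 and 7.73 CPM and at 17.5, 25.5 and 21.6 CPM (1.68, SE 0.37, edgeR adjusted p = 0.0991). Both had separate groups and passed DESeq2 (adjusted p = 0.00657 and 0.000297), the only 1 of 17 alternatives that called them. Cdkn1b, a cell cycle inhibitor that FOXO induces, differed the other way and was chosen after its values were seen. It stood at 107, 125 and 76.2 CPM in Control and at 49.99, 70.7 and 56.5 CPM in IMP1 libraries, with separate groups (−0.80, SE 0.23, edgeR adjusted p = 0.178). Ccnd2, with the highest CPM of this list, was at 396 ± 33.5 against 481 ± 31.0 CPM.

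Oxidant defence genes described as FOXO targets were all lower in IMP1 libraries by their fitted values, 8 of 8 tested with a median log2 fold change of −0.26 (over all genes 52.2% were higher and the median was 0.029), and 0 were called in either direction. Gpx1, a glutathione peroxidase and the gene of highest CPM among them, stood at 1707, 1813 and 1803 CPM in Control and at 1384, 1184 and 1346 CPM in IMP1 libraries (log2 fold change −0.44, SE 0.081, edgeR adjusted p = 0.0760, DESeq2 adjusted p = 0.000124). Its groups were separate. After removal of the length and GC trend the value was −0.22 (edgeR adjusted p = 0.302) and the median of the list −0.19, with 8 of 8 still negative, and without scaling beyond the library total 7 of 8 were negative. Selenop, a secreted selenium carrier, was at 293 ± 47.1 against 227 ± 24.1 CPM with overlapping groups.

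Autophagy and metabolism targets were split, with 8 positive, 7 negative and 0 called of 15 tested (20 listed, median 0.056). Within them the autophagosome gene Map1lc3b was at 1154 ± 82.2 against 849 ± 86.5 CPM (log2 fold change −0.44, SE 0.10, edgeR adjusted p = 0.104, DESeq2 adjusted p = 0.00291) and the mitophagy receptor gene Bnip3l at 429 ± 22.0 against 335 ± 26.6 CPM (−0.36, edgeR adjusted p = 0.172, DESeq2 adjusted p = 0.0202). Both had separate groups, and DESeq2 was the only 1 of 17 alternatives that called them. In this list an edgeR unadjusted p under 0.05 was reached by these 2 and by 2 genes higher in IMP1 libraries. Over all genes 7.63% reached it lower and 6.67% higher. Cell death targets had 2 positive, 4 negative and 0 called of 6 tested (median −0.32), with Bnip3 at 132 ± 24.9 against 107 ± 9.32 CPM and the death receptor adaptor Tradd at 35.5 ± 9.60 against 23.2 ± 3.85 CPM. Of 5 tested lymphoid and trafficking targets 0 were called, with 3 positive, 2 negative and a median of 0.052. In that list Id1, an inhibitor of basic helix-loop-helix factors, stood at 0.413, 1.31 and 1.04 CPM in Control and at 3.34, 9.41 and 7.94 CPM in IMP1 libraries (log2 fold change 2.90, SE 0.80, edgeR adjusted p = 0.162, DESeq2 adjusted p = 0.00571). Tsc22d3, a glucocorticoid-induced gene, was at 389 ± 83.3 against 355 ± 34.9 CPM.

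The genes most like each FOXO factor were sought as a description over the 6 libraries, by the mean absolute difference of log2(CPM + 0.1) after each gene's own mean was subtracted, among genes with at least the factor's range. For Foxo1 they were Dusp28, Vegfc and Spic, which differed from it by 0.16 to 0.19 among 2810 genes compared. For Foxo4 they were Kctd6, Mief2 and Dubr, at 0.14 to 0.20 among 4808 genes. For Foxo3 they were Mroh7, Snx22 and Slc38a7, at 0.42 to 0.55 among 985 genes, which like Foxo3 were at their lowest in Control 3 or IMP1 3. All of these values share libraries and depth with the factor they were matched to.

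**Figure D5:**
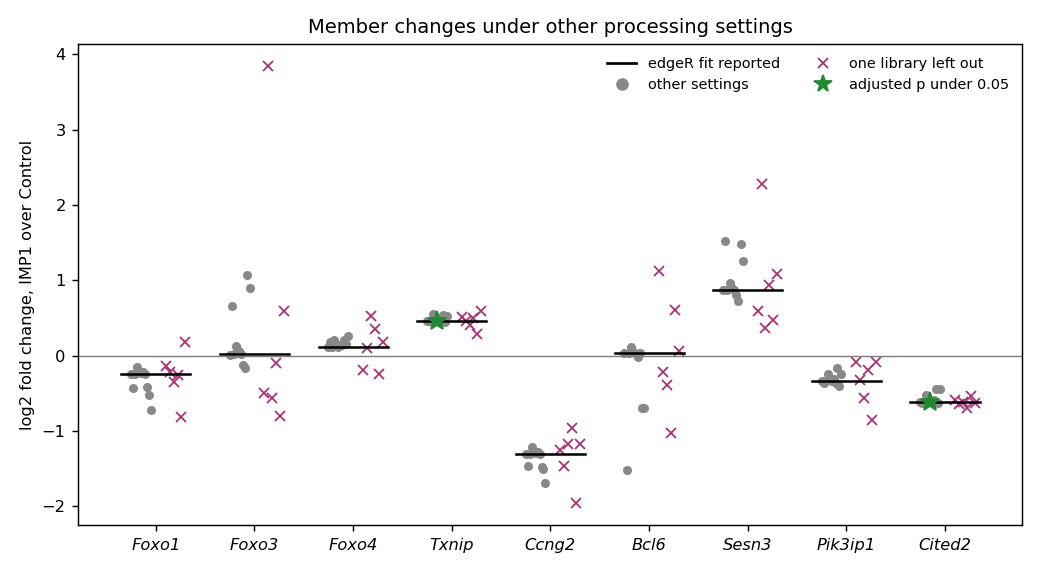
Log2 fold change of each gene, IMP1 over Control, in the edgeR fit reported (black line), under other settings (grey) and with 1 library left out (crosses). Green stars mark an adjusted p under 0.05, reached for Txnip and Cited2 by DESeq2. Txnip, Ccng2, Cited2, Pik3ip1 and Sesn3 stay on 1 side of 0 under every setting drawn.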

How the data were processed

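RNA of 6 LT-HSC libraries was amplified with a SMARTer Ultra Low kit, per the labels' protocols, without molecular identifiers. The table deposited by the authors holds raw counts for each Entrez identifier in each library. The submitters' processing notes name TopHat2 2.0.10 and mm9. The counting program and strand setting are not given in the sources used here. Symbols came from a RefSeq table of GRCm38.p6 (21615 of 21761 identifiers, and the other 146 held 0.0645% of counts), and lengths and GC content from the longest GENCODE transcript of each gene. Near copies were sought with BLAST among those transcripts (at least 95% identity over 100 bases).

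Counts were fitted with edgeR 4.0.16 (quasi-likelihood F test, two-sided, TMM scaling, filterByExpr, genotype as the only term, 6 libraries) in R 4.3.3, and p-values were adjusted over 12807 genes. Each SE was derived from the log2 fold change and its F statistic. DESeq2 1.42.0, limma-voom (limma 3.58.1), other scalings and filters, thinning to 25749898 counts, removal of a loess trend on length and GC content (span 0.4, fitted where mean log2 CPM exceeded 3), the replicate number as a block and leaving out each library were alternatives. Libraries were checked for duplicates, and the lowest chi-square per degree of freedom within a group was 62.9.

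The 9 genes and all lists were chosen with earlier results of these data known. Genes named from a list were those called, the 2 of lowest p and the one of highest mean CPM. Marker genes, Foxo6, Arrdc1, Arrdc2, Cdkn1b, Ccng1, Sesn2, Cited1, Cited4, Mlxip and Mlxipl were named outside that rule. Some genes of the lists are not reported here, and list counts leave them out.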

Additional observations from a re-analysis of the deposited data

How the results depend on the processing

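Of the 9 genes, 0 were called under 16 of 17 alternatives and 2 under DESeq2. Txnip, Ccng2, Sesn3, Pik3ip1 and Cited2 kept their direction under every alternative that tested them, with Sesn3 removed by the strict filter, as were Foxo3 and Bcl6. The log2 fold change of Foxo1 ranged from −0.81 to 0.19 and that of Foxo4 from −0.25 to 0.52 with 1 library left out. Foxo3 ranged from −0.80 to 3.85 in those fits and was −0.13 after thinning and −0.17 after removal of the length and GC trend. Bcl6 ranged from −1.03 to 1.12 in those fits and was −1.51 by limma-voom, −0.015 after thinning and −0.69 with the replicate block, with or without the trend removed. Of the list genes, Sgk3, Skp2, Mdm2, Ccnd1, Cdkn1c, Map1lc3b and Bnip3l were called under 1 of 17 alternatives, which was DESeq2. Id1 was called under 1 of 16, also DESeq2, and Gpx1 under 2 of 17, DESeq2 and the strict filter. Among those DESeq2 did not call were Arrdc4 (DESeq2 adjusted p = 0.09995), Ccnd2 (0.115), Selenop (0.160) and Tradd (0.269). Over all genes the edgeR count of 27 became 896 by DESeq2, 11 by limma-voom, 16 without scaling, 145 with the strict filter and 12 with the trend removed, and 0 to 2 with 1 library left out. The replicate block gave 4 calls, and 0 together with the trend removed. With the block the median of the 9 genes was −0.40 and Pik3r1 had an adjusted p of 0.109. Deviations from the group mean gave r of 0.018 to 0.037 across genes for same-numbered libraries and −0.058 to 0.026 for differently numbered ones. With 3 libraries per group these small values cannot decide whether the numbers mark pairs, and the labels state no pairing. Without scaling beyond the library total 9 were called higher and 7 lower, against 9 and 18 with it, and the median of all genes moved by 0.093. The cause of these differences was not tested. Amplified reads are not independent molecules, so at the low counts of Foxo3, Bcl6 and Sesn3 the limits cover counting error only.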
